A study of Mus musculus with 3 samples.

Results

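The CD4 and CD8 coreceptors and 5 regulators of the choice between the CD4 and CD8 lineages were read in thymocytes that had developed in culture. These 8 genes, Cd4, Cd8a, Cd8b1, Zbtb7b, Runx3, Gata3, Tox and Themis, were chosen by symbol among the 32285 genes of the count matrix, and all 8 were found. Their unique molecular identifiers (UMIs, 1 per captured RNA molecule) were read by stage of maturation, by T cell receptor (TCR) chain state and by pool. Both pools are labelled wild type with no treatment, came from C57BL/6J mice apart from the fibroblasts below, and were collected on culture day 13 and run in 1 droplet lane. The ORFTOC pool came from reaggregates of organoid-grown thymic epithelial cells, EpCAM-depleted fetal thymus cells and wild-type mouse embryonic fibroblasts of a strain not given in the sources used here. For the FTOC pool the lobes of the fetal thymus were cultured intact. By the paper's methods, the organoids came from embryos of a later day than the EpCAM-depleted cells and the lobes. The pools thus also differ in the age of their epithelium. Both were kept in the same medium, which held the growth factor FGF7 and, at first, the kinase inhibitor thiazovivin. Each pool mixed 2 cultures before labelling and is therefore 1 sample, so no difference was tested and every interval (95%, exact) covers counting error only.

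CD4 and CD8 are the coreceptors by which a thymocyte's TCR engages MHC class II and class I molecules. Thymocytes with a rearranged TCR β chain (TRB) proliferate, begin to express both coreceptors, stop dividing and rearrange the α chain (TRA), and cells selected on their complete receptor keep 1 coreceptor. Zbtb7b (ThPOK) directs selected cells to the CD4 lineage and Runx3 to the CD8 lineage, where it silences Cd4. Gata3 and Tox act before Zbtb7b in the CD4 branch, and Themis tunes TCR signalling during selection.

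Cells were kept if they were immune and held exactly 1 productive TRB chain, which left 1487 thymocytes of ORFTOC and 2166 of FTOC. Epithelial cells also held exactly 1 such chain in 5.0% of ORFTOC and 4.9% of FTOC cells. The part of such calls among the cells kept was not tested. A cell was called cycling from the UMIs of 12 proliferation genes. It was then placed by the share of 5 immature (Rag-side) genes among its UMIs of those and of 8 maturity genes. Rag-high cells had a share of at least 0.75 and mature cells a share of at most 0.25. None of the 8 genes was used for this. These classes are ranges of a score and not cell types: of 2817 resting cells, 530 lay within 0.1 of the upper limit and 53 within 0.1 of the lower. For ORFTOC and FTOC respectively there were 235 and 231 cycling Rag-high cells, 437 and 1072 resting Rag-high cells, 109 and 225 intermediate, 396 and 362 resting mature, and 157 and 94 cycling mature cells. A further 85 and 131 resting cells had too few of these UMIs to be placed. Levels are UMIs summed over the cells of a class per 1000000 UMIs (CPM). A level is thus a share of UMIs and not an amount per cell. Median depth ranged from 1507 UMIs per cell in unplaced FTOC cells to 14115 in cycling mature ORFTOC cells. Of the 3653 thymocytes, 324 also held at least 2 UMIs of 6 myeloid genes, and these were not spread evenly.

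In the GRCm38.p6 assembly (the mm10 build of the files), Cd8b1 (chromosome 6, 71322788 to 71337492) and Cd8a (chromosome 6, 71373427 to 71379171) are neighbours, 35934 bases apart. Cd4 lies on the same chromosome at 124864693 to 124888247. Zbtb7b lies on chromosome 3 (89377644 to 89393673), Runx3 on chromosome 4 (135120645 to 135177990), Tox on chromosome 4 (6686353 to 6991557), Gata3 on chromosome 2 (9857078 to 9887953) and Themis on chromosome 10 (28668360 to 28883820). RefSeq promoter windows were given for 5 of the 8 genes. The 250 bases before a start are shown for a Cd8a, a Runx3 and a Zbtb7b window, 5′ to 3′ on the gene's strand. Cd8a and Runx3 were chosen because they ran in opposite directions between stages, and Zbtb7b because it was scarce in mature cells with CD8 alone. Capitals mark the RUNX core motif ACCACA or its reverse TGTGGT.
Cd8a, chr6:71373177-71373426, plus strand: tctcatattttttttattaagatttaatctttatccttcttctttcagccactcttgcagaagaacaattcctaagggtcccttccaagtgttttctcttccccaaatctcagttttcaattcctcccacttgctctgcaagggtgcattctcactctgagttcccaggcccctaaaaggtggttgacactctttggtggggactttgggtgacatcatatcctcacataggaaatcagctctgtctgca
Runx3, chr4:135120395-135120644, plus strand: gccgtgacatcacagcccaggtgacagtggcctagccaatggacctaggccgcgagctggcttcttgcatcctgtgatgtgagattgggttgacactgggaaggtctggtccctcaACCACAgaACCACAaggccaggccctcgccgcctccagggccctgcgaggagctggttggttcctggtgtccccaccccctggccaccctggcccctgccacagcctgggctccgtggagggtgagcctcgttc
Zbtb7b, chr3:89387672-89387921, minus strand: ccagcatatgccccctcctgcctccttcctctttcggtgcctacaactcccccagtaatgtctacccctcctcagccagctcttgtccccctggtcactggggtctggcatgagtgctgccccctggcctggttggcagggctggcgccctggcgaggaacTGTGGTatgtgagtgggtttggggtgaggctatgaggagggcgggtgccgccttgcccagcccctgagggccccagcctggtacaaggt
The Runx3 window shown held 2 matches, the Zbtb7b window shown 1 and the Cd8a window none. The table gives 2 windows each for Runx3 and Zbtb7b, and for each gene the window with matches is shown. Their other windows, the Gata3 window and both Themis windows held no match. Of 32851 promoter windows in the table, 14% held at least 1 match. A match is a run of letters and no measurement of binding.

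The levels of both coreceptors were highest in resting Rag-high cells and low in mature cells, in both pools. Cd4 stood at 442 CPM (402 to 486) in ORFTOC and 536 CPM (505 to 569) in FTOC in resting Rag-high cells. In cycling Rag-high cells it was 57.0 CPM (48.4 to 66.6) in ORFTOC and 118 CPM (103 to 135) in FTOC. Resting mature cells held 38.0 and 42.2 CPM, and cycling mature cells 15.3 and 14.2 CPM. The resting Rag-high level thus lay above every other class of the same pool, with no overlap of the intervals, while the mature classes of the 2 pools overlapped. Epithelial cells of the same lane, which should lack Cd4, held 4.12 CPM in ORFTOC and 5.09 CPM in FTOC.

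Cd8a encodes the CD8α chain, which can also pair with itself. It reached 1489 CPM (1414 to 1567) in resting Rag-high ORFTOC cells and 1844 CPM (1786 to 1904) in FTOC. It was already at 848 and 1114 CPM in cycling Rag-high cells, and stood at 378 CPM (358 to 400) and 295 CPM (275 to 317) in resting mature cells. Cd8b1, the CD8β chain of the αβ heterodimer, was at 2344 CPM (2250 to 2441) and 3009 CPM (2935 to 3085) in resting Rag-high cells, 666 and 1039 CPM in cycling Rag-high cells, and 340 and 374 CPM in resting mature cells. Epithelial cells held at most 17.1 CPM of Cd8a and 18.7 CPM of Cd8b1 in either pool.

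**Figure D1:**
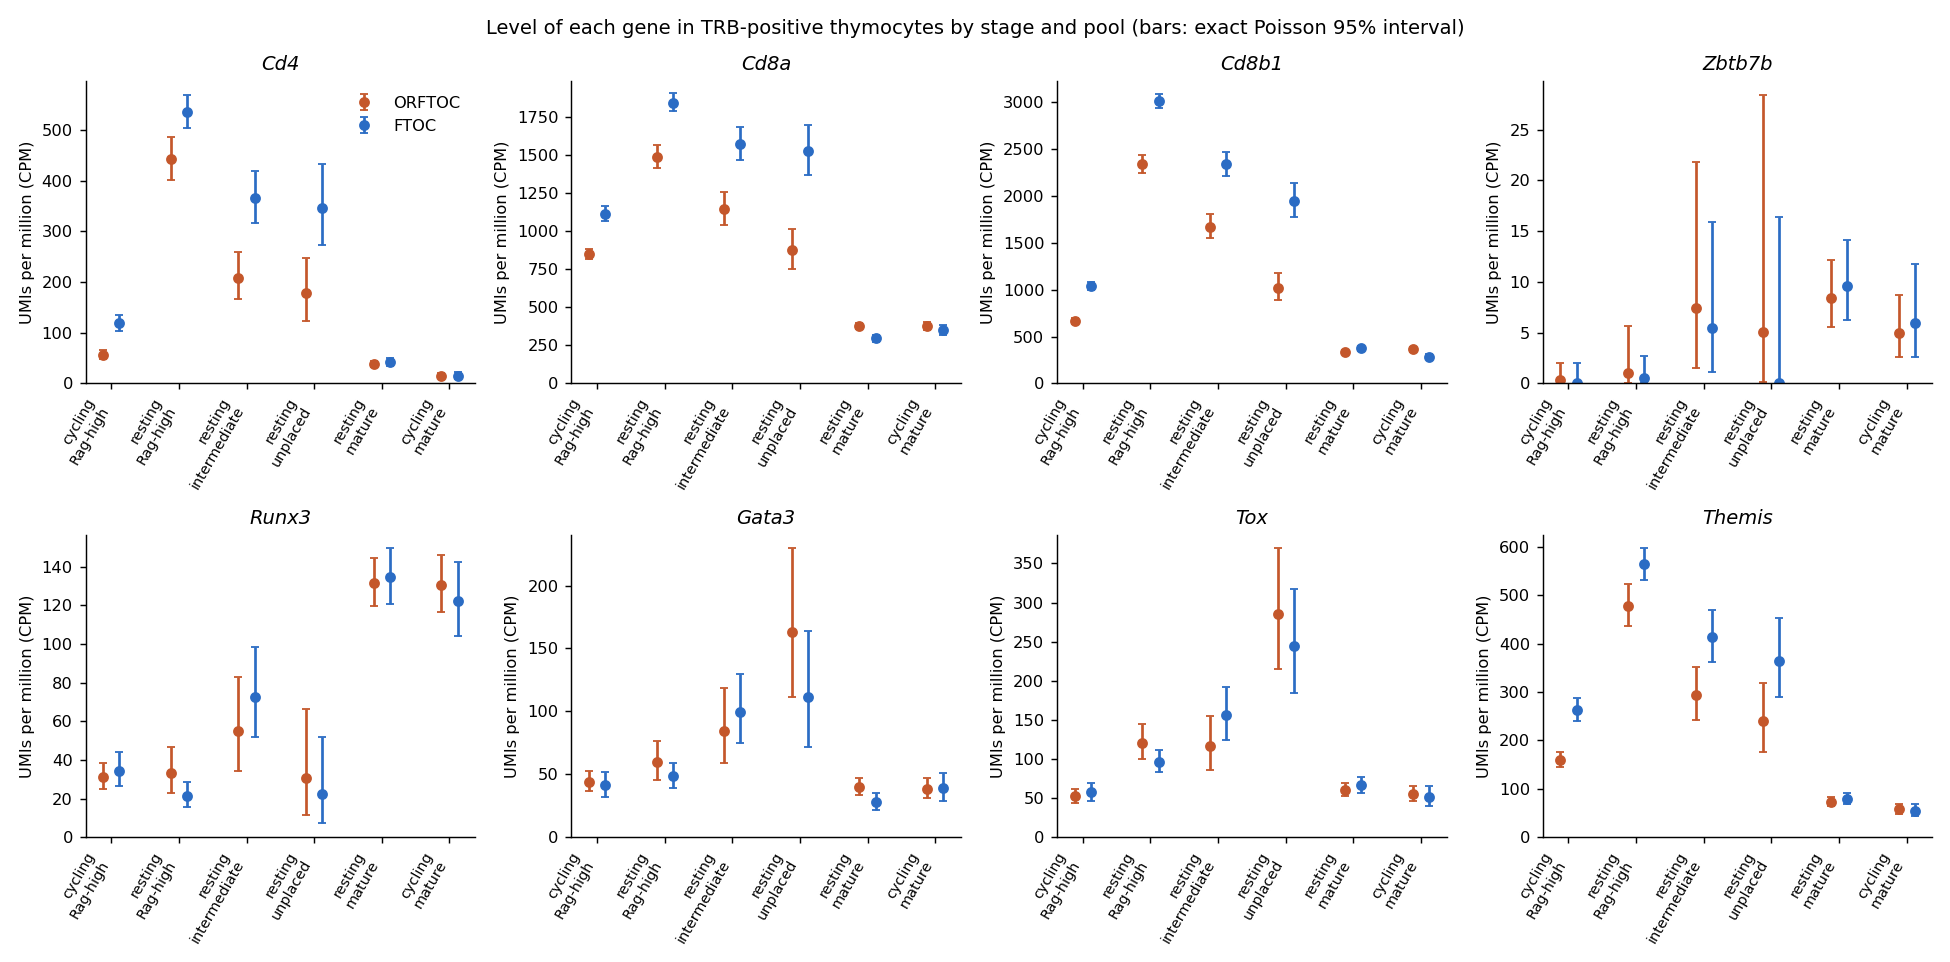
Level of each of the 8 genes (vertical axis, UMIs per 1000000, linear from 0) in 6 classes of TRB-positive thymocytes, ORFTOC in orange and FTOC in blue, with exact Poisson 95% intervals. Cd4, Cd8a, Cd8b1 and Themis peak in resting Rag-high cells, Runx3 is highest in the mature classes (122 to 135 CPM), and Gata3 and Tox are highest in unplaced resting cells.

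The step from cycling to resting Rag-high cells was unequal across the coreceptors. Relative to resting Rag-high cells, the Cd4 level of cycling cells was 7.76-fold lower (6.46 to 9.37) in ORFTOC and 4.53-fold lower (3.91 to 5.27) in FTOC. For Cd8b1 the deficit was 3.52-fold and 2.90-fold, and for Cd8a only 1.76-fold (1.64 to 1.87) and 1.65-fold (1.57 to 1.75). The intervals of the 3 coreceptor genes did not overlap in either pool, so cycling cells were closest to the resting level in Cd8a and farthest from it in Cd4. In ORFTOC, 235 cycling cells held 2352 Cd8a and 158 Cd4 UMIs, and 437 resting Rag-high cells 1478 and 439. Per cell, Cd8a was thus higher and Cd4 lower in the deeper cycling cells. Themis was 2.98-fold and 2.15-fold lower in cycling cells, and Tox 2.31-fold and 1.69-fold lower. Past a 2-fold limit lay 4 of the 7 members that reached 20 CPM in ORFTOC, against 30.9% of all genes tested, and 3 of 7 in FTOC, against 27.3%. Over all genes the median log2 ratio was -0.35 in ORFTOC and -0.33 in FTOC, so every member's log2 ratio is to be read against that shift. Runx1, which represses Cd4 before both coreceptors appear, was 1.45-fold and 1.30-fold lower in cycling cells. It is one of 32 genes of coreceptor regulation and lineage choice listed beside the members. In that list 23 genes reached 20 CPM in each pool. Of these, 6 in ORFTOC and 4 in FTOC were lower past 2-fold in cycling cells and none was higher. Both counts are below the shares of all genes, 30.9% and 27.3%. Socs1, an inhibitor of cytokine signals, was 3.49-fold and 2.82-fold lower. Id2, an inhibitor of E proteins, was 3.77-fold lower in ORFTOC, from 23 and 31 UMIs.

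Cd8b1 UMIs per Cd8a UMI changed with stage. The ratio was 1.57 (1.47 to 1.68) in ORFTOC and 1.63 (1.57 to 1.70) in FTOC resting Rag-high cells, and 0.785 (0.738 to 0.835) and 0.933 (0.875 to 0.994) in cycling Rag-high cells. Resting mature cells had a ratio of 0.90 (0.829 to 0.976) in ORFTOC and 1.26 (1.15 to 1.39) in FTOC. The pools did not overlap there, which they did in resting Rag-high cells. The lowest ratio, 0.607 (0.489 to 0.751), was found in resting mature ORFTOC cells with TRB but no TRA chain. Those 75 cells held 424 CPM of 5 γδ T cell genes and 2519 CPM of the myeloid genes, against 82.9 and 205 CPM in mature ORFTOC cells with both chains. The part of either in the ratio was not tested.

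Co-detection in single cells followed the same order. Here CD8 was counted as detected with at least 1 UMI of Cd8a or Cd8b1, and every cell was thinned to 1000 UMIs, since depth sets the chance of a UMI. This left out 68 thymocytes with fewer UMIs. Cd4 and CD8 were both detected in 41.6% (36.8 to 46.5) of resting Rag-high ORFTOC cells and 41.8% (38.8 to 44.9) of FTOC cells. In cycling Rag-high cells the shares were 8.09% (4.94 to 12.3) and 10.8% (7.13 to 15.6), and CD8 alone was detected in 60% and 70.6%. Among resting mature cells both were detected in 2 of 396 ORFTOC cells (0.505%) and 4 of 362 FTOC cells (1.10%). Epithelial cells gave 0.328% and 0.402%, and the intervals of the mature classes overlap these. Before thinning, median depth was 13174 and 12108 UMIs in epithelial cells. It was 7336 and 6148 in resting mature and 1700 and 1658.5 in resting Rag-high cells. Whether free RNA weighs more in the shallower cells was not tested.

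At full depth the shares with both were 59.7% in each pool in resting Rag-high cells, 39.1% in ORFTOC and 53.2% in FTOC in cycling Rag-high cells, and 4.04% and 6.35% in resting mature cells. Epithelial cells, with a median of 13174 and 12108 UMIs, gave 2.38% and 2.72%. Summed over the 16 mature ORFTOC cells with both coreceptors, the myeloid genes were at 9130 CPM, and 3 of the cells held at least 2 such UMIs. The level was 288 CPM in the 23 FTOC cells with both and 204 CPM in ORFTOC cells with CD8 alone. The part of these UMIs in the shares was not tested. Cd4 without CD8 was rare in the Rag-high classes: at full depth it was found in 2 of 437 ORFTOC and 1 of 1072 FTOC resting Rag-high cells, and in 0 of 235 and 0 of 231 cycling Rag-high cells. A count of 0 allows a share of cells with such UMIs of up to 1.28% and 1.30% in the latter at 3 cells of the total, and the exact intervals reach 1.56% and 1.58%.

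**Figure D2:**
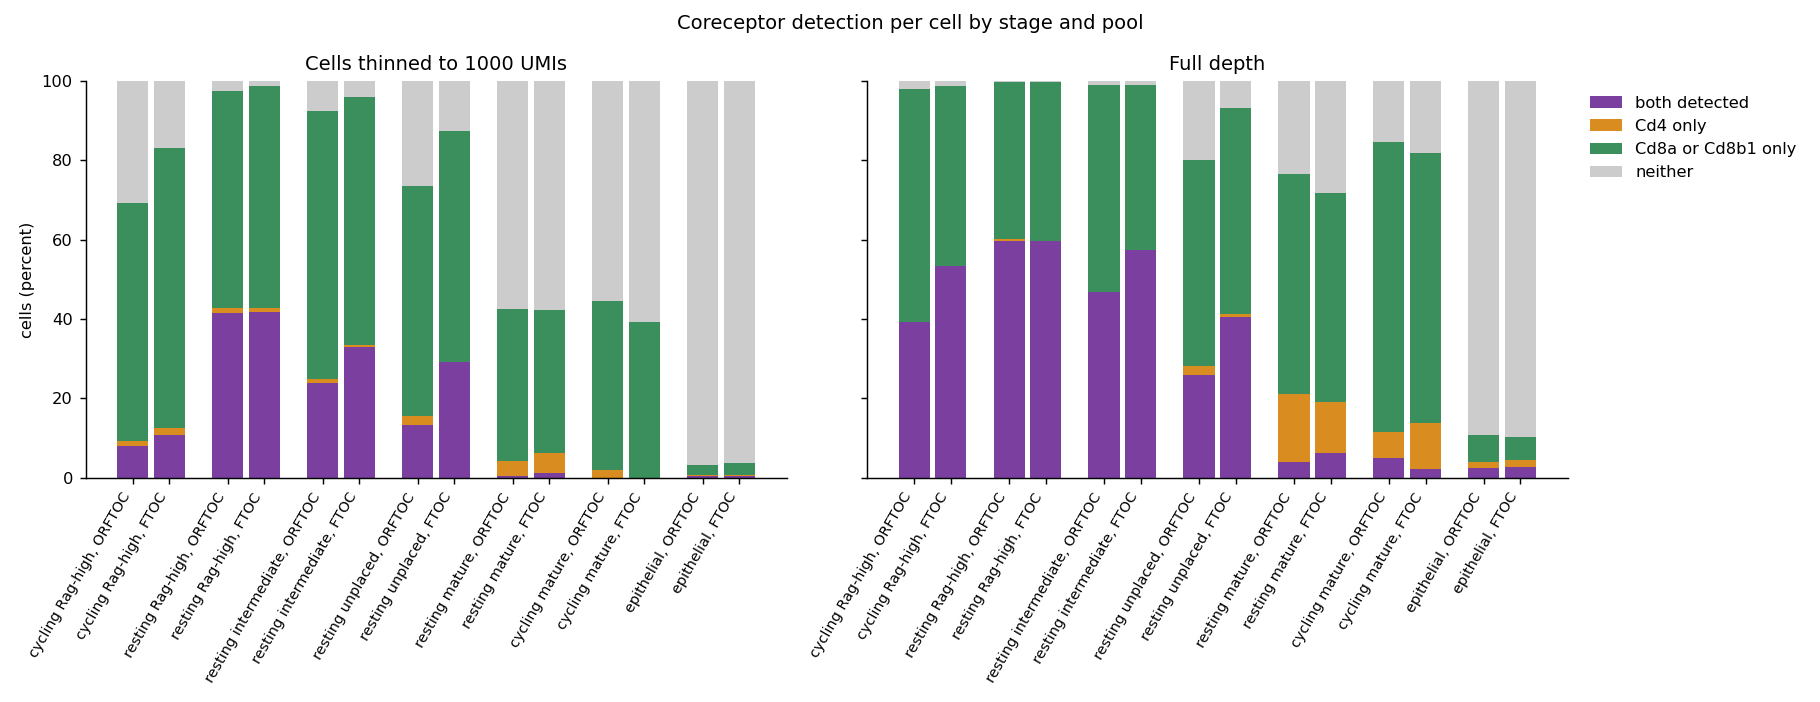
Share of cells (percent, stacked to 100) with Cd4 and CD8 both detected, Cd4 only, Cd8a or Cd8b1 only, or neither, by class and pool, with cells thinned to 1000 UMIs on the left and at full depth on the right. Cells with both make up 41.6 and 41.8% of thinned resting Rag-high cells, and cells with Cd4 only appear mainly among mature cells.

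The levels of both coreceptors and of Themis were lower in resting mature than in resting Rag-high cells, and that of Runx3 was higher. These are shares of UMIs: in ORFTOC, 396 resting mature cells held 1255 Cd8a and 126 Cd4 UMIs, and 437 resting Rag-high cells 1478 and 439. Cd4 was 11.6-fold lower (9.54 to 14.3) in ORFTOC and 12.7-fold lower (10.4 to 15.6) in FTOC. Cd8b1 was 6.89-fold and 8.06-fold lower, and Cd8a 3.94-fold (3.65 to 4.25) and 6.24-fold (5.78 to 6.76) lower. Themis went from 478 to 72.9 CPM in ORFTOC and from 564 to 79.0 CPM in FTOC, or 6.55-fold and 7.14-fold lower. Past 2-fold lay 6 of 7 members with at least 20 CPM in ORFTOC and 5 of 7 in FTOC, where 32.0% and 35.3% of all genes tested did. The median log2 ratio over all genes was -0.51 and -0.54.

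Runx3 went the other way. It stood at 33.3 CPM (22.9 to 46.7) in ORFTOC and 21.4 CPM (15.6 to 28.8) in FTOC in resting Rag-high cells, and at 132 CPM (120 to 145) and 135 CPM (121 to 149) in resting mature cells. This was 3.96-fold (2.78 to 5.83) and 6.28-fold (4.58 to 8.80) higher. In cycling mature cells it was 131 and 122 CPM, within counting error of the resting ones. Among the members only Cd4 was past 2-fold between cycling and resting mature cells, 2.48-fold (1.70 to 3.68) and 2.97-fold (1.81 to 5.11) lower in the cycling ones, against 8.43% and 9.17% of genes. Beside the Runx3 levels, 7 genes listed for innate lymphoid cells were at 12.1 and 8.77 CPM in resting Rag-high cells and 209 and 330 CPM in resting mature cells of ORFTOC and FTOC. Klrd1 alone held 174 and 300 CPM of the mature sums, so these are no measure of innate lymphoid cells. The sums of this list given below were not split by gene. The part of the 7 genes in the Runx3 ratio, and in those of Nkg7 and Itgae below, was not tested. Zbtb7b had 1 UMI in all resting Rag-high cells of each pool. Resting mature cells had 28 UMIs in ORFTOC (8.44 CPM, 5.61 to 12.2) and 25 in FTOC (9.59 CPM, 6.20 to 14.2), a ratio of 8.37 (1.38 to 342) and 19.7 (3.22 to 808). Epithelial cells themselves held Zbtb7b, at 14.3 and 11.2 CPM, so their share is no background for this gene.

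Gata3 and Tox moved least. Gata3 was 1.49-fold and 1.72-fold lower in mature than in resting Rag-high cells, and Tox 2.01-fold and 1.45-fold lower. Of the 27 listed genes with at least 20 CPM in ORFTOC, 5 were higher and 15 lower past 2-fold, and of 29 in FTOC, 7 were higher and 15 lower, beside the 32.0% and 35.3% of all genes. The 15 lower genes were shared by both pools, and all 5 genes higher in ORFTOC were higher in FTOC. Il7r is among these 5 and was itself used to place the cells. Its call, and its part in the counts of higher genes and in their sharing, is therefore not independent of the classes. Myb, a transcription factor of immature thymocytes, was 22.0-fold and 12.4-fold lower. Nkg7, a granule protein of cytotoxic cells, went from 9.07 to 490 CPM in ORFTOC and from 4.87 to 584 CPM in FTOC, and Itgae, the CD103 integrin of CD8 cells, from 3.02 to 81.1 CPM and from 0.975 to 97.0 CPM.

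Gata3 and Tox were highest in the resting cells that could not be placed, in both pools. Tox, a nuclear factor needed for CD4 lineage development, stood at 285 CPM (215 to 370) in ORFTOC and 244 CPM (184 to 318) in FTOC. That was 2.36-fold (1.69 to 3.26) and 2.53-fold (1.84 to 3.43) above resting Rag-high cells. Gata3 stood at 163 CPM (111 to 230) and 111 CPM (71.9 to 164), or 2.74-fold and 2.30-fold above. In ORFTOC, Cd4 (2.48-fold) and Cd8b1 (2.29-fold) were lower, so 4 of 7 members were past 2-fold, against 20.1% of all genes tested. In FTOC, Gata3 and Tox were the 2 of 7, against 11.3%. These cells also held 1690 and 768 CPM of 6 genes of positive selection (Cd69 and Egr1 among them), none of which was used to place cells, against 317 and 233 CPM in resting Rag-high cells and 908 and 762 CPM in resting mature cells. The 6 genes are not particular to thymocytes: epithelial cells held 1086 and 1162 CPM of them and mesenchymal cells 1883 and 2097 CPM. In the unplaced cells Cd5, a surface brake on TCR signalling that follows its strength, was 4.0-fold and 4.90-fold above resting Rag-high cells. The myeloid genes were at 3483 CPM in the unplaced ORFTOC cells and 378 CPM in the unplaced FTOC cells, and their part in the selection sum was not tested. Without the cells that held at least 2 myeloid UMIs, Tox was 361 and 252 CPM and Gata3 207 and 110 CPM.

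Intermediate cells were not midway for every member: the Gata3 sum was above that of both resting Rag-high and resting mature cells in each pool, although the ORFTOC interval included the resting Rag-high level. In FTOC, Runx3 was at 72.5 CPM (51.8 to 98.7) and Gata3 at 99.6 CPM (75.1 to 130), 3.38-fold and 2.06-fold above resting Rag-high cells, and Tox at 156 CPM, against 96.5 CPM in resting Rag-high and 66.3 CPM in resting mature cells. Runx3 and Gata3 were the 2 members past 2-fold, against 5.22% of genes tested. In ORFTOC, Runx3 was at 54.7 CPM and Gata3 at 84.6 CPM, 1.65-fold (0.914 to 2.91) and 1.42-fold (0.904 to 2.21) above, and the only member past 2-fold was Cd4 (2.12-fold lower), against 14.4% of genes. In the ORFTOC class 15 cells with myeloid UMIs held 40.4% of all UMIs. Without such cells in either class, Cd4 was 275 CPM against 453 CPM in resting Rag-high cells, so its call was lost. Runx3 was 25.0 against 31.1 CPM, which turned its direction, and Gata3 121 against 61.2 CPM.

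Across the 12 class-by-pool sums, the profiles fell into groups. Pearson's r of log2(CPM + 10) was 0.980 between Cd4 and Cd8b1, 0.981 between Cd4 and Themis, and 0.939 between Gata3 and Tox, while Runx3 was at -0.854 with Cd8a. Among 5137 genes with at least 50 CPM in a class, the nearest to Cd4 were Tbxa2r (0.994), Cd247 (0.9903) and Trp53inp1 (0.9901). Lck, the kinase bound to the coreceptors, was among the 3 nearest to Themis (0.991). The nearest to Runx3 was Esyt1 (0.970), followed by Klf2 and S1pr1, which had been used to place the cells. These values describe 12 sums from 1 lane that share libraries and stage rule.

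No member was past 2-fold between the pools in 5 of 6 classes. In resting Rag-high cells none of the 7 members with at least 20 CPM was past 2-fold, against 2.0% of all genes tested, and in resting mature cells none was, against 1.15%. None was in intermediate (14.6%), unplaced (23.4%) or cycling mature cells (1.71%, 6 members). Ratios under that limit still left out equal levels: in unplaced cells Cd4 was 1.94-fold (1.29 to 2.99), Cd8b1 1.91-fold (1.61 to 2.26) and Cd8a 1.74-fold (1.45 to 2.11) lower in ORFTOC, and in intermediate cells Cd4 was 1.75-fold lower (1.35 to 2.29). In resting Rag-high cells Cd4 was 1.21-fold, Cd8a 1.24-fold, Cd8b1 1.28-fold and Themis 1.18-fold lower in ORFTOC, each with an interval that left out equal levels. Myeloid genes were at 1224 CPM in the ORFTOC cells of this class and 291 CPM in the FTOC cells. Without the cells concerned, the levels were 453 and 538 CPM for Cd4, 1561 and 1881 CPM for Cd8a, and 2447 and 3055 CPM for Cd8b1, with ORFTOC still below. Among resting mature cells Cd8a was 1.28-fold higher in ORFTOC (1.17 to 1.40), and Gata3 1.42-fold higher (1.06 to 1.92). Runx3 had a ratio of 0.978 (0.848 to 1.13) there and Zbtb7b 0.880 (0.495 to 1.57).

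Cycling Rag-high cells held the one member past 2-fold. Cd4 was 2.08-fold lower (1.68 to 2.57) in ORFTOC, where 1.44% of all genes tested passed the limit. The log2 ratio of -1.06 was -0.77 with each cell given equal weight, -0.94 with pools set by hashtag ratio and just inside the limit with placement limits of 0.9 and 0.1, so the call was lost in each. Themis was 1.64-fold and Cd8b1 1.56-fold lower in ORFTOC, and Cd8a 1.31-fold, while Runx3, Gata3 and Tox had intervals that included equal levels. Both chains were found in 10.6% of these ORFTOC cells (7.0 to 15.3) and 15.6% of the FTOC cells (11.2 to 20.9). Of the listed genes, 22 reached 20 CPM in cycling and 23 in resting Rag-high cells. None of them passed 2-fold, against 1.44% and 2.0% of all genes tested. Of 27 in resting mature cells Tbx21 alone did, lower in ORFTOC (10.5 against 21.5 CPM), against 1.15% of all genes.

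**Figure D3:**
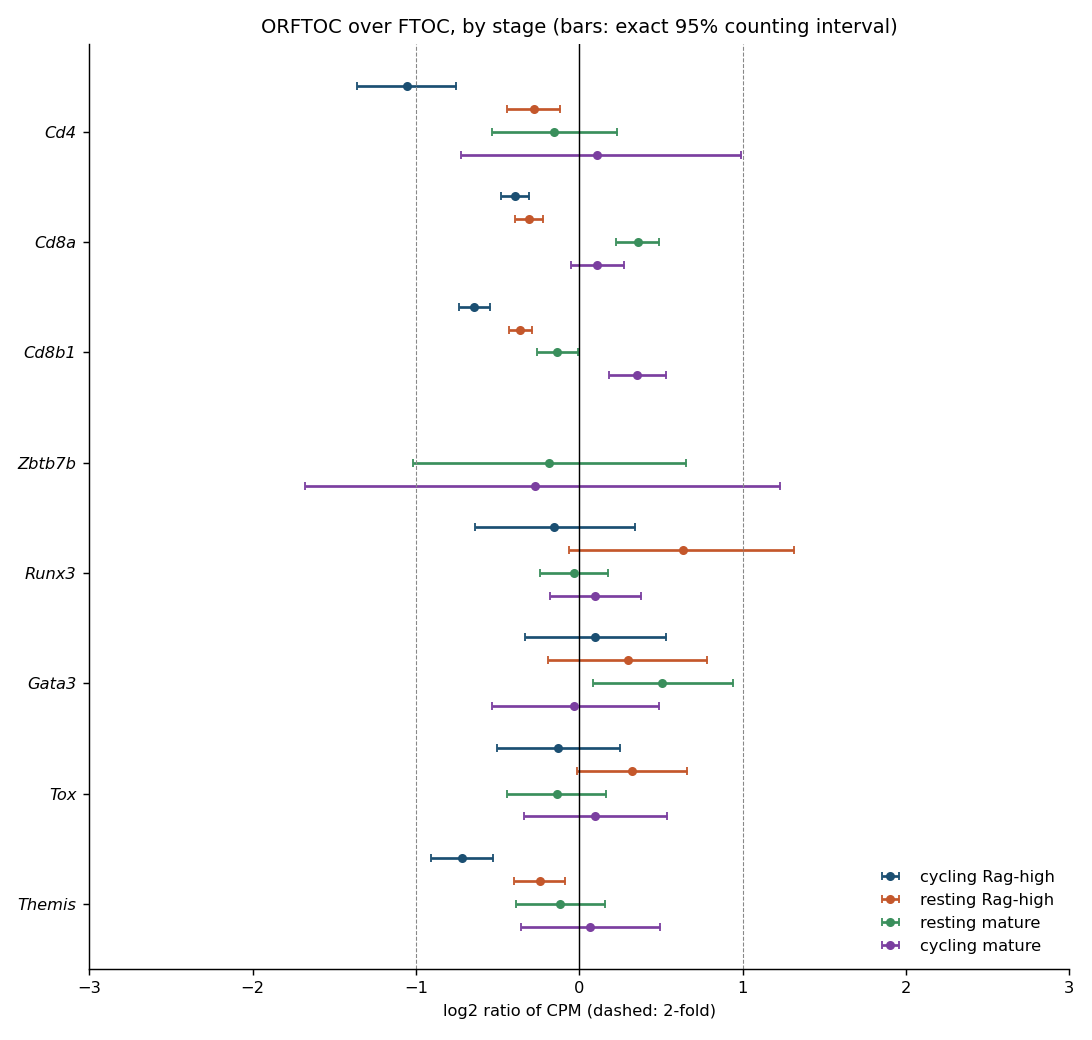
Log2 ratio of ORFTOC over FTOC (horizontal axis) for each gene in 4 classes, with exact 95% counting intervals and dashed lines at 2-fold. Only Cd4 in cycling Rag-high cells lies past a dashed line (-1.06), and Zbtb7b has no ratio in the Rag-high classes, where at most 1 UMI was counted in a pool.

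Immune cells without any productive chain, 1285 in ORFTOC and 806 in FTOC, differed more. There Cd4 (20.3 against 55.9 CPM), Cd8b1 (119 against 276 CPM) and Themis (36.3 against 86.8 CPM) were lower and Gata3 (115 against 56.7 CPM) was higher past 2-fold in ORFTOC, 4 of 7 members against 6.45% of genes. The group is not made of thymocytes alone: the myeloid genes were at 6249 CPM in ORFTOC and 2295 CPM in FTOC, and the innate lymphoid genes at 669 and 543 CPM. Without the cells holding at least 2 myeloid UMIs, Gata3 was at 229 and 76.8 CPM, Cd4 at 35.0 and 88.4 CPM, Cd8b1 at 262 and 489 CPM and Themis at 69.4 and 139 CPM. The part of the innate lymphoid genes was not tested. Its resting Rag-high cells alone, 61 and 157 cells, held 703 CPM (551 to 884) and 603 CPM (517 to 699) of Cd4 and 2648 and 2656 CPM of Cd8b1, within counting error of each other.

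In resting Rag-high cells the members were then compared by chain state. TRB and TRA chains were both found in 157 ORFTOC cells (35.9%, 31.4 to 40.6) and 376 FTOC cells (35.1%, 32.2 to 38.0). In ORFTOC, cells with both chains held 104 CPM of Gata3 from 31 UMIs and cells with TRB only held 40.4 CPM from 28 UMIs, 2.57-fold (1.49 to 4.45). Gata3 was the only member past 2-fold, 1 of 7, where 13.8% of all genes were, so the count was near that share. Themis was 1.72-fold (1.43 to 2.08), Cd8a 1.53-fold (1.37 to 1.70) and Cd8b1 1.49-fold (1.37 to 1.62) higher with both chains, and Cd4 stayed within counting error (462 and 434 CPM). Of the 23 listed genes with at least 20 CPM only Cd5 passed 2-fold (308 against 123 CPM).

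In FTOC no member passed 2-fold, against 3.65% of genes. Gata3 was at 45.2 and 49.8 CPM, a ratio of 0.908 (0.574 to 1.41), which does not overlap the ORFTOC interval. Themis was 1.15-fold (1.02 to 1.30) and Cd8a 1.16-fold (1.09 to 1.24) higher with both chains, and Cd8b1 1.03-fold (0.975 to 1.08). Runx3 was at 13.1 CPM with both chains and 25.6 CPM with TRB only, from 9 and 35 UMIs, or 1.95-fold lower (0.920 to 4.62), and it was past 2-fold under 7 of 11 alternatives. The ORFTOC cells with TRB only held 1701 CPM of the myeloid genes against 117 CPM with both chains. In FTOC the values were 212 and 446 CPM. With cells holding myeloid or epithelial UMIs left out, the ORFTOC log2 ratio was 1.5 for Gata3 (1.36 with them), 0.66 for Themis (0.79) and 0.50 for Cd8a (0.61). The Gata3 ratio lost its 2-fold call when a TRA chain needed 3 UMIs (log2 0.96, with an interval from -0.0026 to 1.88) and with at least 1000 genes per cell.

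**Figure D4:**
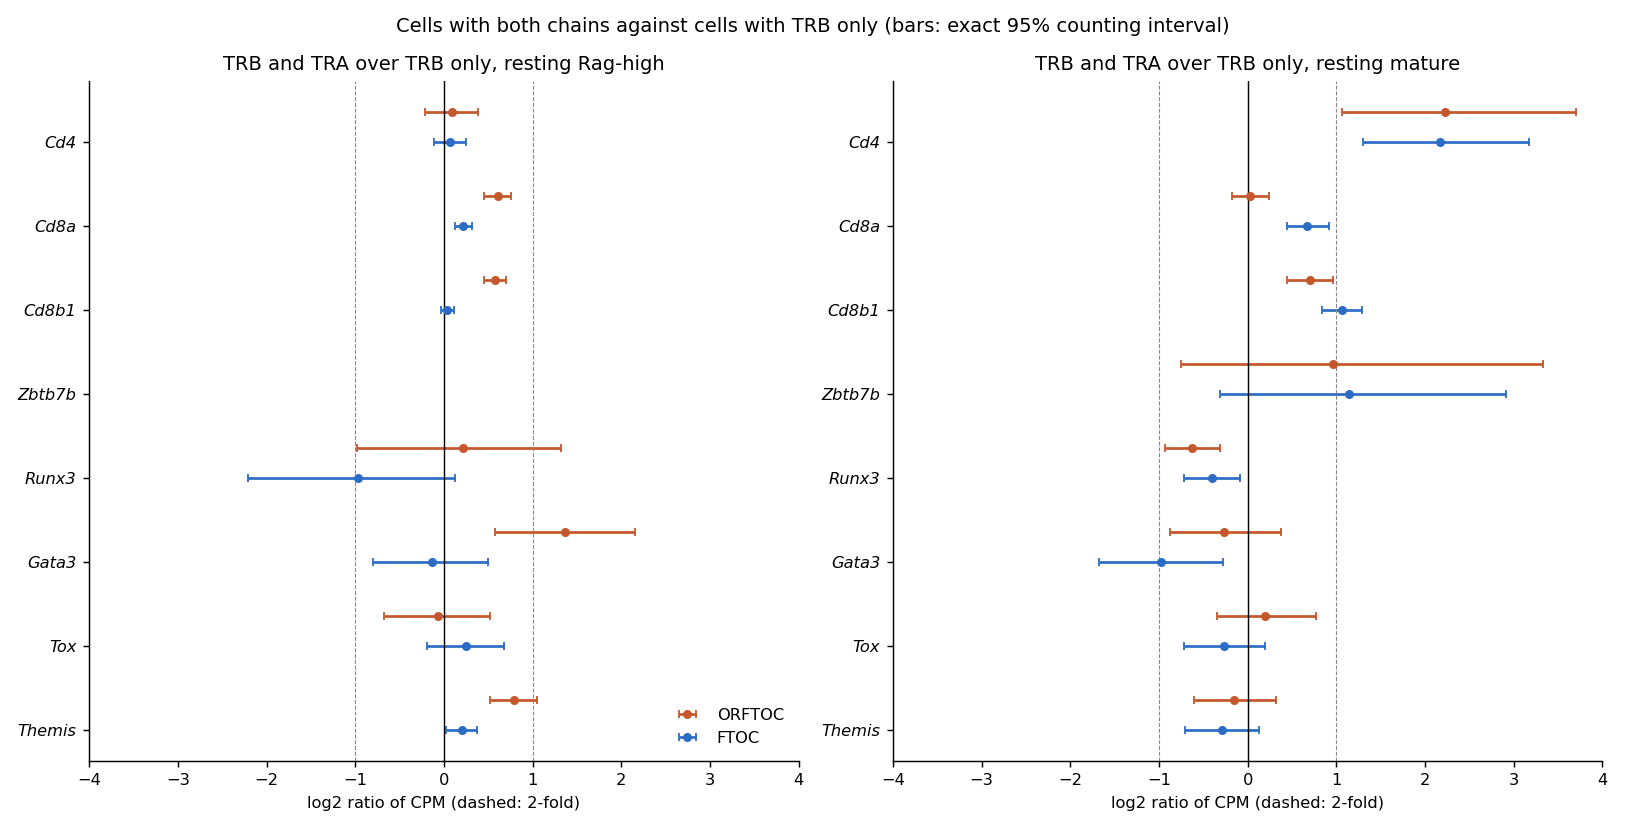
Log2 ratio of cells with both chains over cells with TRB only (horizontal axis) for each gene in resting Rag-high cells (left) and resting mature cells (right), ORFTOC in orange and FTOC in blue, with exact 95% counting intervals and dashed lines at 2-fold. On the left only Gata3 in ORFTOC is past 2-fold (1.36), and on the right Cd4 lies at 2.23 and 2.17.

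By chain state, Cd4 differed most in resting mature cells. It was at 44.6 CPM with both chains and 9.53 CPM with TRB only in ORFTOC, 4.68-fold (2.09 to 13.0), and at 58.4 and 12.9 CPM in FTOC, 4.51-fold (2.47 to 9.03). The intervals of the 2 chain states did not overlap in either pool. Cd8b1 was 1.63-fold and 2.09-fold higher with both chains, and Cd8a 1.02-fold (0.886 to 1.18) in ORFTOC but 1.60-fold (1.36 to 1.89) in FTOC. Runx3 was lower with both chains, at 119 against 184 CPM in ORFTOC and 121 against 159 CPM in FTOC. Past 2-fold lay Cd4 in ORFTOC, against 7.21% of genes, and Cd4 and Cd8b1 in FTOC, against 5.58%. Of the 24 listed genes with at least 20 CPM in ORFTOC, 3 were higher past 2-fold and none lower. Of 28 in FTOC, 3 were higher and 4 lower. Cd5 (3.22-fold and 3.85-fold) and Lef1, a transcription factor that favours the CD4 lineage (2.01-fold and 2.04-fold), were higher with both chains in ORFTOC and FTOC. In FTOC, Crtam was 3.42-fold, Tbx21 2.80-fold, Itgae 2.77-fold and Id2 2.57-fold lower. Mature cells with TRB only held 342 and 561 CPM of the innate lymphoid genes, against 179 and 202 CPM with both chains, and the γδ genes were at 424 and 430 CPM against 82.9 and 57.2 CPM. The myeloid genes were at 2519 and 493 CPM with TRB only and 205 and 173 CPM with both chains. Without the cells holding myeloid UMIs, Cd4 was at 49.5 and 11.1 CPM in ORFTOC and 62.7 and 14.7 CPM in FTOC. In all resting mature FTOC cells, Fcer1g (157 CPM) and Tyrobp (78.2 CPM) made most of the 287 CPM of myeloid genes, with 0 UMIs of Csf1r. In ORFTOC, Lyz2 made 360 of 644 CPM. Among mature cells, here and below, leaving out such cells is thus not a removal of myeloid RNA alone. The part of the innate lymphoid and γδ genes was not tested.

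Mature cells divided unequally between the coreceptors. At full depth Cd4 alone was detected in 68 ORFTOC cells (17.2%, 13.6 to 21.3) and 46 FTOC cells (12.7%, 9.46 to 16.6), and CD8 alone in 219 (55.3%) and 191 (52.8%). Neither was detected in 93 and 102 cells. Among thinned cells with 1 coreceptor, Cd4 made up 9.04% (5.15 to 14.5) in ORFTOC and 12.8% (7.86 to 19.2) in FTOC, and at full depth 23.7% and 19.4%. The pools overlapped at both depths, and their order changed between them. Cd4-only cells held 191 and 290 CPM of Cd4, and Cd8-only cells 614 and 468 CPM of Cd8a and 553 and 584 CPM of Cd8b1. The shares are of cells with a UMI and not of lineages.

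Zbtb7b was scarce in Cd8-only mature cells, but its share in Cd4-only cells was close to that in cells with neither coreceptor (13.3%). It was detected in 16 of 114 Cd4-only cells (14%, 8.24 to 21.8) and 2 of 410 Cd8-only cells (0.488%, 0.0591 to 1.75). By pool the shares were 13.2% and 0.457% in ORFTOC and 15.2% and 0.524% in FTOC, with medians of 6346 UMIs in Cd4-only and 8024 in Cd8-only cells. In UMIs this was 19 against 2, or 23.6 against 0.569 CPM, a ratio of 41.4 (10 to 367). Of the 5 regulators Zbtb7b alone was past 2-fold over both pools, against 7.08% of all genes tested.

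Runx3 was the regulator higher on the CD8 side. It stood at 159 CPM in Cd8-only and 79.4 CPM in Cd4-only cells, 2.0-fold lower (1.54 to 2.63) in the latter, with a log2 ratio that fell just inside the limit. It was detected in 60.5% (55.6 to 65.3) of Cd8-only and 34.2% (25.6 to 43.7) of Cd4-only cells. In ORFTOC the deficit of Cd4-only cells was 1.58-fold (1.18 to 2.16), from 53 and 310 UMIs, and in FTOC 3.96-fold (2.18 to 8.04), from 11 and 247 UMIs. Both pools ran the same way, with 8.13% and 20.3% of genes past 2-fold, and only the FTOC value was past it. Gata3 (28.5 against 26.5 CPM), Tox (65.8 against 52.4 CPM) and Themis (69.5 against 81.1 CPM) had intervals that included equal levels.

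Of the 28 listed genes with at least 20 CPM, 5 were higher and 5 lower past 2-fold in Cd4-only cells over both pools, against 7.08% of all genes tested. Cd40lg, the helper T cell ligand of CD40, had 32 UMIs in Cd4-only and 2 in Cd8-only cells, a ratio of 69.8 (17.8 to 601), and Runx1 was 3.89-fold higher (2.59 to 5.82). Nkg7 was 23.8-fold, Itgae 15.7-fold and Crtam, an activation receptor of cytotoxic cells, 22.0-fold lower (3.86 to 878, from 1 UMI against 96). Eomes, a transcription factor of CD8 and innate-like cells, had no UMI in Cd4-only cells and 97 in Cd8-only cells, and was at least 7.41-fold lower against a floor of 3 UMIs. Both chains were found in 94.7% of Cd4-only cells (88.9 to 98) and 74.6% of Cd8-only cells (70.1 to 78.8). The innate lymphoid genes were at 33.5 CPM in Cd4-only and 306 CPM in Cd8-only cells, and the γδ genes at 23.6 and 172 CPM.

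The 195 mature cells with neither coreceptor were close to the Cd4-only cells in Zbtb7b, which was detected in 26 of them (13.3%, 8.90 to 18.9). They held 20.5 CPM, 36.0-fold (9.06 to 313) above Cd8-only cells. Gata3 was also higher, at 58.5 CPM, 2.21-fold (1.61 to 3.02) above Cd8-only cells, and was so in each pool (70.2 and 46.9 CPM against 31.0 and 20.7 CPM). These were the 2 regulators past 2-fold over both pools, against 2.53% of genes. Tox was at 85.1 CPM and Runx3 at 102 CPM. Both chains were found in 61.0% of these cells (53.8 to 67.9), and the innate lymphoid genes were at 305 CPM and the γδ genes at 250 CPM. The myeloid genes were at 370 CPM, against 219 CPM in Cd8-only and 143 CPM in Cd4-only cells. Without the cells holding at least 2 myeloid UMIs, Zbtb7b was at 24.3 CPM and Gata3 at 62.5 CPM in cells with neither.

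Zbtb7b and Runx3 were detected together in 19 of 758 resting mature cells (2.51%, 1.52 to 3.89). That was 19 of the 48 cells with a Zbtb7b UMI, 11 of 25 in ORFTOC and 8 of 23 in FTOC. Among all resting mature cells Runx3 was detected in 393 of 758, which is 211 of 396 in ORFTOC and 182 of 362 in FTOC. Of the 48 cells, 16 were Cd4-only, 2 Cd8-only, 4 had both coreceptors and 26 had neither.

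**Figure D5:**
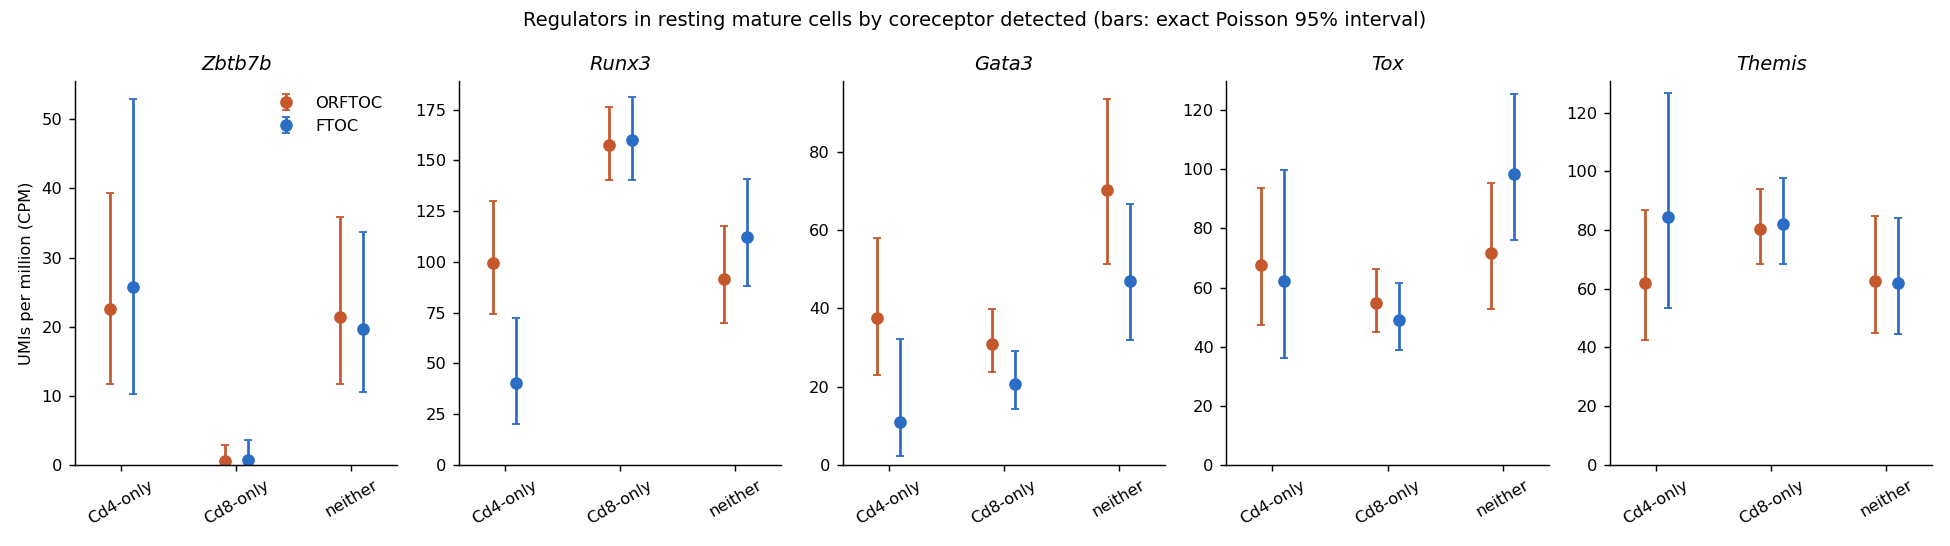
Level of the 5 regulators (vertical axis, UMIs per 1000000, linear from 0) in resting mature cells with Cd4 only, CD8 only or neither coreceptor detected, ORFTOC in orange and FTOC in blue, with exact Poisson 95% intervals. Zbtb7b is near 0 in Cd8-only cells of both pools and Runx3 is highest there (158 and 160 CPM), while Gata3 is highest in cells with neither.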

How the data were processed

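Gene expression, TCR and hashtag libraries of 1 droplet lane were read. The authors aligned reads to mm10 with Cell Ranger 6.1.2 and used Seurat 4.2.0, per the labels and methods. The header of the matrix names Cell Ranger 4, and whether this changes values was not tested. The deposited matrix holds raw UMI counts for 705161 barcodes (103984163 UMIs), and the deposited contig lists hold UMI and read counts per TCR contig. Barcodes with at least 600 genes and 0.4 to 10% mitochondrial UMIs were kept (10245). HTODemux in Seurat 5.3.0 (R 4.3.3, positive quantile 0.99) gave 8983 single cells, 590 doublets and 672 negatives. A rebuilt neighbour rule removed 591 doublets within pools and left 8392 cells. After SCTransform (sctransform 0.4.2) without the 8 members among the variable genes, clusters at resolution 0.4 over 18 components were classed as immune, epithelial or mesenchymal from marker lists, and 5894 cells were immune. Chains were counted from productive contigs.

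Cells were called cycling with at least 3 UMIs and 1000 CPM of the proliferation genes, and needed 3 UMIs of the stage genes to be placed. UMIs were summed per class in Python 3.11.15 (pandas 2.3.3, numpy 2.4.6, scipy 1.17.1, and matplotlib 3.10.9 for the figures). CPM carry exact Poisson intervals, shares Clopper-Pearson intervals and ratios exact binomial intervals, all at 95%. A count of 0 was set to 3 in a ratio, and no ratio is given with both counts at or under 3. A gene was past 2-fold if it also reached 20 CPM in the higher group. The same limits over all genes gave the percentages beside the counts of members. The ratio and thinning code was tested on simulated data. The members and lists were chosen with earlier results of these data known. Of the 32 listed genes at most 6 per comparison were named, those with the largest ratios. Runx1 in cycling cells and Lef1 in FTOC mature cells by chain state fell outside that rule and were named after their values were seen. Il7r was named for its use in placing cells. One listed gene is not reported here by name. Ratios of 2 pools rest on 1 sample each, so no p-value is given.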

Additional observations from a re-analysis of the deposited data

Results flagged for a closer look

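TRA contigs that were assembled with high confidence but are not productive were outside the comparisons above, and they were found in thymocytes with TRB only well above the level in epithelial cells (1.31% in ORFTOC, 1.71% in FTOC). Among resting Rag-high cells with TRB only, ORFTOC had 97 of 280 (34.6%, 29.1 to 40.5) and FTOC 322 of 696 (46.3%, 42.5 to 50.05). In cycling Rag-high cells the shares were 10% (21 of 210) in ORFTOC and 24.1% (47 of 195) in FTOC. In resting mature cells with TRB only they were 25.3% (19 of 75) in ORFTOC and 15% (18 of 120) in FTOC. TRB only thus means that no productive TRA chain was found.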

How the results depend on the processing

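In all, 17 alternatives were tried, of which thinning to 3000 UMIs was chosen after seeing the data. Of 670 log2 ratios of members, 649 kept their sign and none with an interval off 0 changed it, and 112 of 144 shares and counts stayed within counting error or 1.5 times. Co-detection in resting Rag-high cells of ORFTOC and FTOC was 36.6% and 37.4% with at least 1000 genes, 10.8% and 12.54% with 2 UMIs required, and 59.7% and 59.7% unthinned. The Cd4-only share of mature cells with 1 coreceptor was 0% and 1.35% with 2 UMIs, 23.7% and 19.4% unthinned, 17.0% and 20.2% at 3000 UMIs, and 7.69% in FTOC with TRB chains of 3 UMIs. Members past 2-fold between pools were 0 instead of 1 in cycling Rag-high cells by hashtag ratio, with limits of 0.9 and 0.1 or with equal weight per cell, and 1 instead of 0 in resting Rag-high cells by hashtag ratio. Regulators past 2-fold between Cd4-only and Cd8-only cells were 2 instead of 1 with doublets kept, with 1000 genes, with no compartment required or with limits of 0.9 and 0.1, where Runx3 (log2 -1.09 to -0.92 over all alternatives) crossed the limit. They were 3 with states from 2 UMIs, where Gata3 also passed it, lower in Cd4-only cells. By chain state in resting Rag-high cells, ORFTOC had 0 instead of 1 with 1000 genes or TRA chains of 3 UMIs and 2 with cycling from 2000 CPM (also Themis). FTOC had 1 instead of 0 by hashtag ratio, with no compartment required, with myeloid or epithelial cells left out, with limits of 0.9 and 0.1, without Ptcra and Il7r, with cycling from 2000 CPM or with TRA chains of 3 UMIs, each time Runx3 (down to log2 -1.54). The causes were not tested. No paired analysis was possible because each pool is 1 sample and no result comes from a test. Limits: 2 cultures of 1 lane per pool cannot show spread between cultures, stages are cut from a score, free RNA adds UMIs to every cell, and Zbtb7b rests on 28 and 25 UMIs in resting mature cells.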

Other observations

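Among cells left without a hashtag call, 38 were resting Rag-high cells with 1 TRB chain, and Cd4 and CD8 were both detected at full depth in 18 of them (47.4%, 31.0 to 64.2). Their pool is not known, and they entered no comparison. The profile of 4581105 UMIs in barcodes of under 100 UMIs held 95 CPM of Cd4, 183 CPM of Cd8a, 202 CPM of Cd8b1 and 174 CPM of Themis. For Cd4 this exceeds the level in mature cells of either pool, but it is the make-up of free RNA and not its share in a cell. Epithelial cells of the same lane had a lower Cd4 level than either mature class.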
